A study of Mus musculus with 8 samples.

Results

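Hox genes and the other homeobox, T-box and Twist factors that pattern the limb skeleton were followed in bone-derived mesenchymal stem cells (MSc) of the mouse. The genes were taken by name: every named locus of the table whose symbol is a Hox, Dlx, Msx, Tbx, Prrx, Pitx, Meis, Pbx, Irx, Satb, Twist or Meox gene of the limb and skeletal families, Six2, Six4 or another gene of their family, Shox2 or Lmx1b. This gave 81 genes, each on 1 locus, of 49782 named genes. Of the 81, 33 are Hox genes and 48 are not. A further 10 symbols of these families, among them Hoxa3, Hoxa6, Hoxc5, Hoxc6, Hoxd4, Hoxd10 and the limb mesenchyme factor Prrx1, were not analysed here.

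The cells came from the femur and tibia of 8 mice, 4 wildtype of the strain C57Bl6/J and 4 Has-tKO. Has-tKO mice lack Has1 and Has3 in all cells and carry a Has2 allele that 4-hydroxytamoxifen deletes through a Cre recombinase. Both groups were grown for 4 passages, received 4-hydroxytamoxifen for 48 h in passages 2 and 3, and were sampled on day 7 of osteogenic differentiation, so that the drug is shared and the genotype differs. The sources used here give neither the promoter that drives the Cre recombinase nor the strain background of the Has-tKO line, and a difference between these groups cannot be told apart from one between the lines. The study asked what the loss of hyaluronan synthesis does to osteogenic differentiation.

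Hox genes lie in 4 clusters, Hoxa to Hoxd, and are numbered by paralogue group, from 1 at the anterior end of the body axis to 13 at the posterior end. In the limb, groups 9 to 13 of the Hoxa and Hoxd clusters set the identity of segments from the hip or shoulder outwards: groups 9 and 10 act in the thigh, group 11 in the lower leg and group 13 in the foot. The T-box factor Tbx4 and its upstream activator Pitx1 mark the hindlimb, and Tbx5 marks the forelimb. Adult stromal cells of the skeleton keep part of this code in culture.

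Levels are deposited FPKM, fragments scaled to transcript length and library total, with n = 4 per group and the SD over mice. The summed FPKM of a library was between 198221 and 259871, and the number of reads is unknown, so that no counting error can be given. Wildtype 1 stood apart: 8327 named genes reached 1 FPKM there, against 9677 to 10353 in the other 7 libraries, and its median-ratio size factor was 0.660 against 0.984 to 1.14. Loci without a name took 61.5% of its FPKM and a single locus 30.4% (14.2% to 18.6% in the others). In Has-tKO 4, loci without a name took 56.4%, against 45.4% to 48.7% in the remaining 6 libraries. Of the 3 targeted synthases 1, Has3, was analysed here, at 0.236 to 0.466 FPKM in wildtype and 0.150 to 0.663 FPKM in Has-tKO. These ranges overlap, and the sources used here do not say which part of Has3 is deleted, so its level is no check of a label. Stromal and osteogenic markers were present in both groups (10 of 16 analysed, none at 0 throughout, Thy1 at 17 ± 2.97 and Runx2 at 5.95 ± 1.82 FPKM in wildtype), while the marrow stromal marker Lepr stayed below 1 FPKM in every library. Macrophage markers were present too, with 17 of 21 analysed, none at 0 throughout, and a summed level of 390 to 661 FPKM in wildtype and 632 to 1042 FPKM in Has-tKO. In bulk RNA, fewer cells of a type and less RNA per cell cannot be told apart.

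Over the Hox genes analysed, the wildtype cells carried a posterior code without the Hoxb cluster. A mean of at least 1 FPKM was reached by 6 of the 33 Hox genes: 5 of the 15 in groups 9 to 13, 1 of the 8 in groups 5 to 8 and none of the 10 in groups 1 to 4. By cluster these were 3 of 9 Hoxa genes (Hoxa9, Hoxa10 and Hoxa11), 0 of 10 Hoxb genes, 1 of 7 Hoxc genes (Hoxc10) and 2 of 7 Hoxd genes (Hoxd8 and Hoxd9). These counts hold as deposited and depend on the cut. Hoxc4 of group 4 and Hoxa13 lay just under it, with wildtype means of 0.917 and 0.957 FPKM. After median-ratio scaling of the libraries their wildtype means were 1.01 and 1.03. Groups 9 to 13 held 70.5% ± 3.09 of the summed Hox FPKM in wildtype, groups 5 to 8 held 21.0% ± 2.25 and groups 1 to 4 held 8.49% ± 1.14. These counts and shares lack Hoxa3 and Hoxd4 of groups 1 to 4 and Hoxa6, Hoxc5 and Hoxc6 of groups 5 to 8. Of groups 9 to 13 they lack Hoxd10 only, so the groups below 9 may be understated. The Hoxa cluster held 50.5% ± 4.62, Hoxc 26.3% ± 1.67, Hoxd 21.4% ± 4.42 and Hoxb 1.78% ± 0.566.

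Hoxa10, a thigh-level gene whose product helps to shape the femur, was the highest Hox gene analysed. It stood at 2.90, 6.42, 5.96 and 6.72 FPKM in wildtype 1 to 4, so that wildtype 1 lay well below the other 3. Its cluster neighbour Hoxa11, which acts in the lower leg, had 2.28, 3.90, 4.11 and 3.88 FPKM, again with wildtype 1 lowest. Hoxa9 was steadier and lower, at 1.09, 1.2, 1.43 and 1.31 FPKM. Hoxa13, the foot-level gene at the end of the cluster, had a mean of 0.957 ± 0.241 FPKM. Within each wildtype library the order was Hoxa10 above Hoxa11 above Hoxa13, with Hoxa10 3.77 to 8.19 times as high as Hoxa13 and 1.27 to 1.73 times as high as Hoxa11.

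Among the genes analysed, Hoxd8 was the highest Hoxd gene. As deposited it was the only Hox gene outside groups 9 to 13 with a wildtype mean of 1 FPKM or more. It had 3.54, 3.21, 3.69 and 4.09 FPKM in the wildtype libraries. These 4 values lie close together, wildtype 1 included. Hoxd9 averaged 1.18 ± 0.166 FPKM. The more posterior Hoxd genes were low or absent: Hoxd11 averaged 0.256 ± 0.0681 FPKM, Hoxd13 was above 0 in 1 wildtype library (0.0883 FPKM), and Hoxd12 was listed at 0 in all 8. Hoxc10, the highest Hoxc gene and one that is expressed in hindlimb and not forelimb of the embryo, had 2.29, 2.57, 2.13 and 2.78 FPKM. Its neighbours Hoxc11, Hoxc4, Hoxc8, Hoxc13 and Hoxc9 lay under 1 FPKM, between 0.724 and 0.929 FPKM on average. Of the 10 Hoxb genes, Hoxb9 was the highest at 0.223 ± 0.0873 FPKM, and Hoxb1, Hoxb5, Hoxb8 and Hoxb13 were listed at 0 in all 8 libraries.

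**Figure D1:**
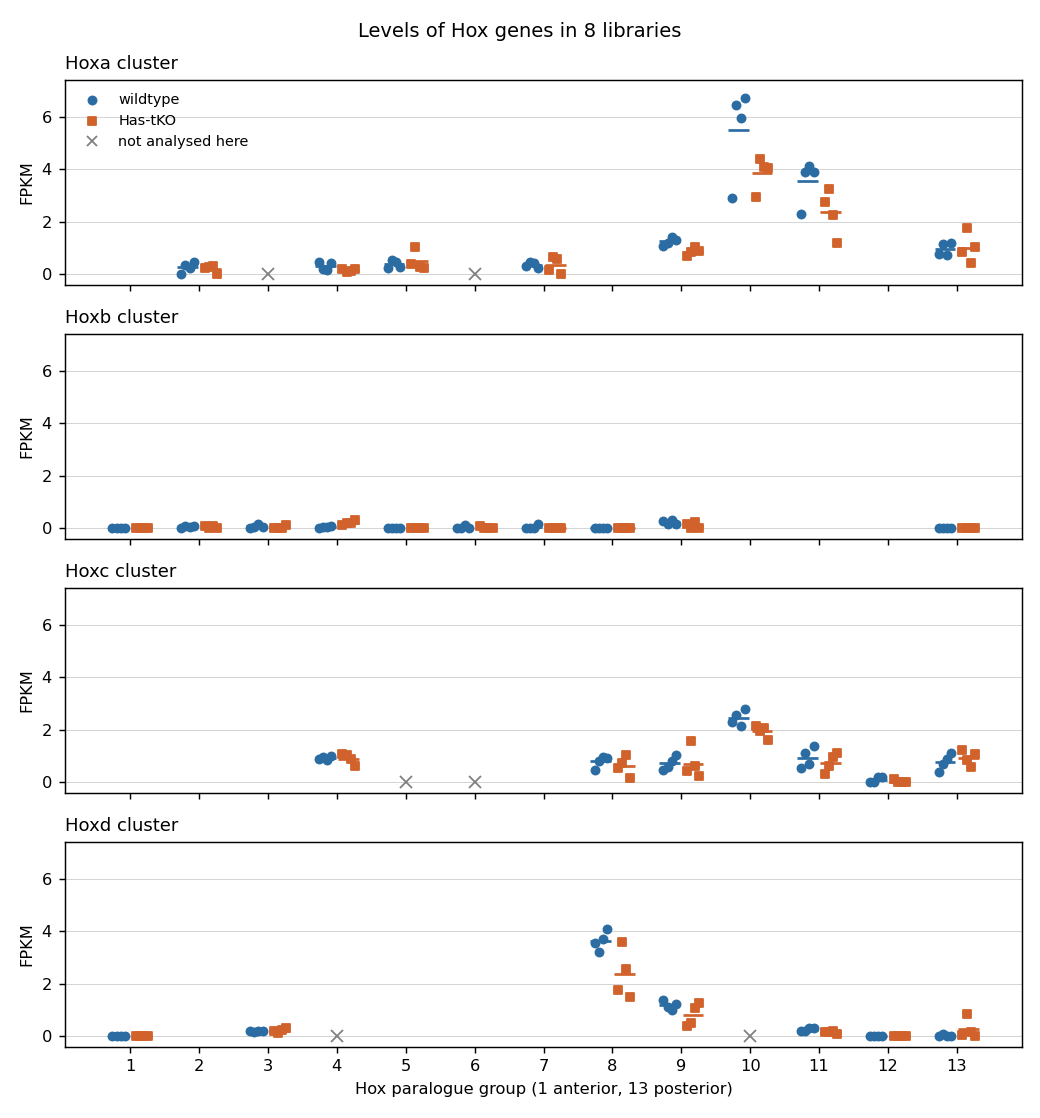
FPKM of Hox genes by cluster (panels) and paralogue group (x axis) in 4 wildtype (blue circles) and 4 Has-tKO libraries (orange squares), with lines at the group means and grey crosses for genes not analysed here. Group means of 1 FPKM and more lie in groups 8 to 13 of the Hoxa, Hoxc and Hoxd clusters, and the Hoxb panel stays near 0 in both groups.

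The hindlimb pair was present and the forelimb factor was close to 0. Pitx1 stood at 7.96, 8.83, 6.82 and 9.03 FPKM in the wildtype libraries, and Tbx4 at 3.57, 6.45, 5.64 and 4.81 FPKM. Tbx5 did not pass 0.123 FPKM in any of them. The ratio of Tbx4 to Tbx5 was 29.1 to 71.8 in wildtype and 33.0 to 165 in Has-tKO, so that the hindlimb member was far above the forelimb member in every library of both genotypes.

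Among the other limb factors, Tbx18 and the mesenchymal helix-loop-helix factor Twist1 were highest, with 9.90 ± 3.98 and 7.94 ± 1.97 FPKM in wildtype. Shox2, which acts in the proximal limb bones, followed at 4.77 ± 1.47, and Prrx2, the paralogue of Prrx1, at 4.24 ± 0.333 FPKM. The Iroquois genes Irx3 and Irx5, neighbours in 1 gene cluster, stood at 4.15 ± 0.305 and 3.72 ± 0.289 FPKM. Of the cofactors that bind DNA beside Hox proteins, Meis3 (3.38 ± 0.728) was above 1 FPKM, and Meis1 (0.339 ± 0.145) and Meis2 (0.772 ± 0.309) were below. Tbx2 had 1.79 ± 0.133 FPKM.

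Several factors of bone formation and limb patterning stayed under 1 FPKM on average in both groups. Dlx3, Dlx5 and Dlx6, which act in osteoblast differentiation or distal limb growth, averaged 0.921, 0.776 and 0.0979 FPKM in wildtype. Msx1 and Msx2 averaged 0.777 and 0.222 FPKM, Tbx3 0.650, Twist2 0.113 and the dorsal limb factor Lmx1b 0.523 FPKM. In all, 13 of the 81 genes were listed at 0 in every library, 6 of them Hox genes. Gene levels rest on merged loci of the authors' assembly, and the order of genes is given as deposited.

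**Figure D2:**
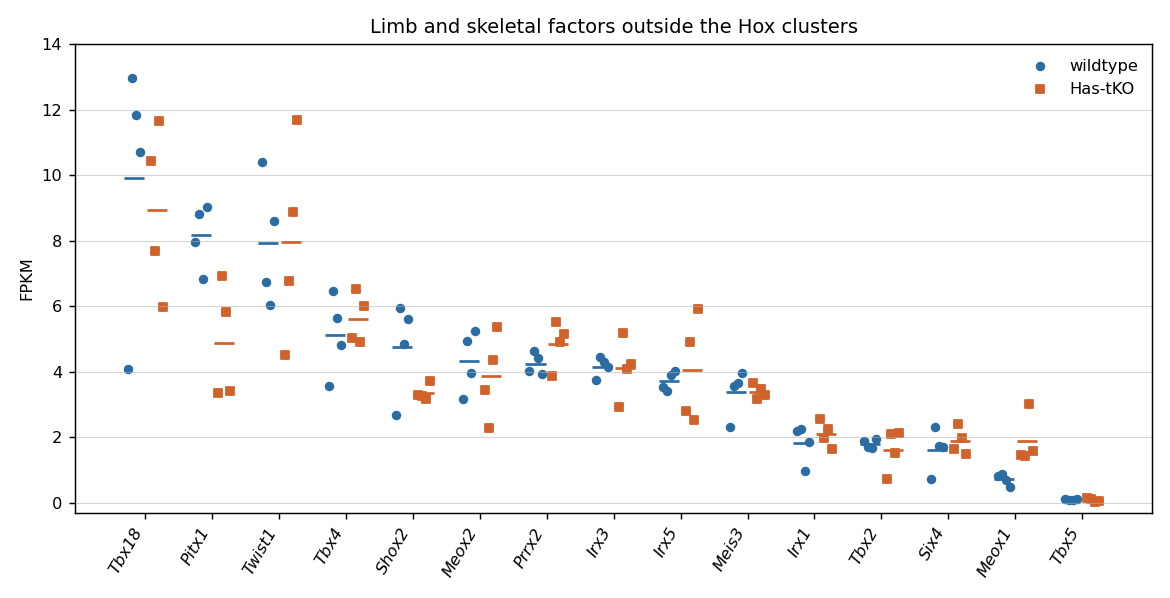
FPKM of 14 tested factors outside the Hox clusters and of Tbx5 in 4 wildtype (blue circles) and 4 Has-tKO libraries (orange squares), ordered by wildtype mean, with lines at the group means. Pitx1 shows a lower Has-tKO mean and Meox1 a higher one, while Tbx5 stays near 0 throughout.

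The stretch of 250 bases before the transcript start is shown for the 3 neighbouring Hoxa genes of the thigh and lower leg code, for Shox2, the 1 gene of the set that passed the test after scaling, and for the hindlimb marker Tbx4. Sequences are from RefSeq on GRCm38.p6 (the positions belong to that build and not to the one the authors used), read 5′ to 3′ on the minus strand for Hoxa9 (chr6:52227371-52227620), Hoxa10 (chr6:52234940-52235189), Hoxa11 (chr6:52245811-52246060) and Shox2 (chr3:66981772-66982021), and on the plus strand for Tbx4 (chr11:85896515-85896764). Another Hoxa10 start, with its window at chr6:52240855-52241104, is not shown and holds no TATAAA. Capitals mark the letters TATAAA on either strand.
Hoxa9: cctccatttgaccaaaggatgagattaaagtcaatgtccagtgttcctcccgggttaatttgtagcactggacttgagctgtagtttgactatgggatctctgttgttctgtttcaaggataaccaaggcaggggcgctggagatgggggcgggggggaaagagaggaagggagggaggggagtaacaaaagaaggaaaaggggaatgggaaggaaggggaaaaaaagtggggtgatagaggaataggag
Hoxa10: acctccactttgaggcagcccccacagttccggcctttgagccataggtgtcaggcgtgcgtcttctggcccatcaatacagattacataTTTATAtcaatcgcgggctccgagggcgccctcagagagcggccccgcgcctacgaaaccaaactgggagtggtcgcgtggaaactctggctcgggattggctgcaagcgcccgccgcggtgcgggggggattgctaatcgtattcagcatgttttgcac
Hoxa11: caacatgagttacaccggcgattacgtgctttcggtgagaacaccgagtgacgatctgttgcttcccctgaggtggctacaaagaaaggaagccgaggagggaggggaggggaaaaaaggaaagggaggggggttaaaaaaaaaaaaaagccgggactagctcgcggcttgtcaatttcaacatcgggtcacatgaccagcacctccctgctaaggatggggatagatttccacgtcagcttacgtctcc
Shox2: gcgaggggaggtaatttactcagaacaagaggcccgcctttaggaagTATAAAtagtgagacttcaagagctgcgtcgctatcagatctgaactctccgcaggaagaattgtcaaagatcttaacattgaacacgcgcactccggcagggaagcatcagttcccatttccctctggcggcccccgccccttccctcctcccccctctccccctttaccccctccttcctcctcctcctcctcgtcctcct
Tbx4: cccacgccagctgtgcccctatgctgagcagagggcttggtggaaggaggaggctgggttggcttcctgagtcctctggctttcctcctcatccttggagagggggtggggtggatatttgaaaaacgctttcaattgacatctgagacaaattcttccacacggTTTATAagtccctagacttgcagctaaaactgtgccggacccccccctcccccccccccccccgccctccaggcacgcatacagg

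Promoters were matched by symbol for 49 of the 81 genes (59 promoters), and for 15 of the 24 genes tested for a difference between genotypes (17 promoters). Each window was searched on both strands for 8 short motifs. TATAAA was found in 5 of the 17 promoters of tested genes (Hoxa10, Shox2, Tbx4, Twist1 and Meox2) and in 12.4% of all 32851 promoters. AGGTCA, the core element of retinoic acid receptors, was found in 1 of the 17 (Hoxd8) and in 14% of all, and the T-box core GGTGTGA in 1 (Hoxd9) and in 3.33% of all. The homeodomain core TAATTA (4.84% of all promoters), the Hox and Pbx composite TGATNNAT (7.68%), the Meis motif TGACAG (15.9%), the Pitx motif TAATCC (6.25%) and the Twist E-box CATATG (3.46%) were in none of the 17. TAATTA and TGATNNAT can overlap. A match is a run of letters and not a bound site.

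In Has-tKO the highest Hox genes of wildtype again led the Hoxa, Hoxc and Hoxd clusters, with a mean below wildtype for several genes of the code and none past the test as deposited. Of the 81 genes, 24 reached 1 FPKM in at least 4 libraries and were tested, 7 of them Hox genes. By limma on log2(FPKM + 1), with Benjamini-Hochberg adjustment over all 9915 genes tested, 0 of the 24 had an adjusted p under 0.05, where 1.78% of all genes did (1.58% higher and 0.192% lower in Has-tKO). At an unadjusted p under 0.05 there were 4 of 24, 1 higher (Meox1) and 3 lower (Pitx1 and Hoxd8 among them). Of all genes 16.7% had one (14.4% higher and 2.3% lower). Meox1 met the filter as deposited only through its Has-tKO values. The median difference of all tested genes was 0.16 on the log2 scale, and median-ratio scaling of the libraries brought it to -0.03. After that scaling 1 of the 24 passed, Shox2, which fell by 0.56 (adjusted p = 0.0444), where 2.7% of all genes passed (1.38% higher and 1.32% lower). At an unadjusted p under 0.05 there were then 9 of 24, of which 8 were lower, where 18.7% of all genes had one (8.44% higher and 10.3% lower). Hoxa9 is among the lower ones and met the filter after scaling only through its wildtype values.

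Leaving out wildtype 1 changes these calls. Without it, and with no scaling, 2 of the 24 genes passed: Shox2, lower by 0.57 (-0.57, adjusted p = 0.0298), and Hoxa10, lower by 0.61 (-0.61, adjusted p = 0.0390). Calls rose over all genes too, with 349 of 9843 passing in that fit against 176 of 9915 with all libraries. After scaling and without wildtype 1 both passed again (Shox2 adjusted p = 0.0222, Hoxa10 adjusted p = 0.0306). Over all genes 355 of 9601 passed there, against 2.7% after scaling with all libraries. Without wildtype 3 and after scaling, Pitx1 passed in place of Shox2 (-1.04, adjusted p = 0.0482), where 334 of 9607 passed over all genes. Over the 8 scaled fits that each leave out 1 library, Shox2 passed in 1, with adjusted p from 0.0222 to 0.167 in limma and a difference between -0.64 and -0.50.

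The tested genes lay below the bulk of genes as a set. Their median difference was -0.10 as deposited and -0.30 after scaling, against 0.16 and -0.03 for all tested genes, so that it was 0.26 lower than the median of all genes on either scale (-0.26 in both). For the 7 Hox genes the medians were -0.30 and -0.43. Below 0 were 15 of the 24 as deposited, where 26.7% of all genes were, and above 0 were 9 of 24 (73.3% of all genes). After scaling 22 of 24 lay below 0 (55.2% of all genes) and 2 of 24 above (44.8%). In 2 genes, Hoxa9 among them, the 4 Has-tKO values all lay below the 4 wildtype values, a pattern that 1.53% of all tested genes showed, and in Meox1 all lay above (12% of all genes). After scaling 8 genes lay wholly below (among them Hoxa9, Hoxa10, Hoxa11, Hoxc10, Meis3, Pitx1 and Shox2, where 7.73% of all genes did) and Meox1 alone wholly above (5.57%). Hoxa9 met the filter after scaling only through its wildtype libraries, so its gap on that scale is no independent sign of a difference. These counts and medians describe the 24 genes and carry no test.

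**Figure D3:**
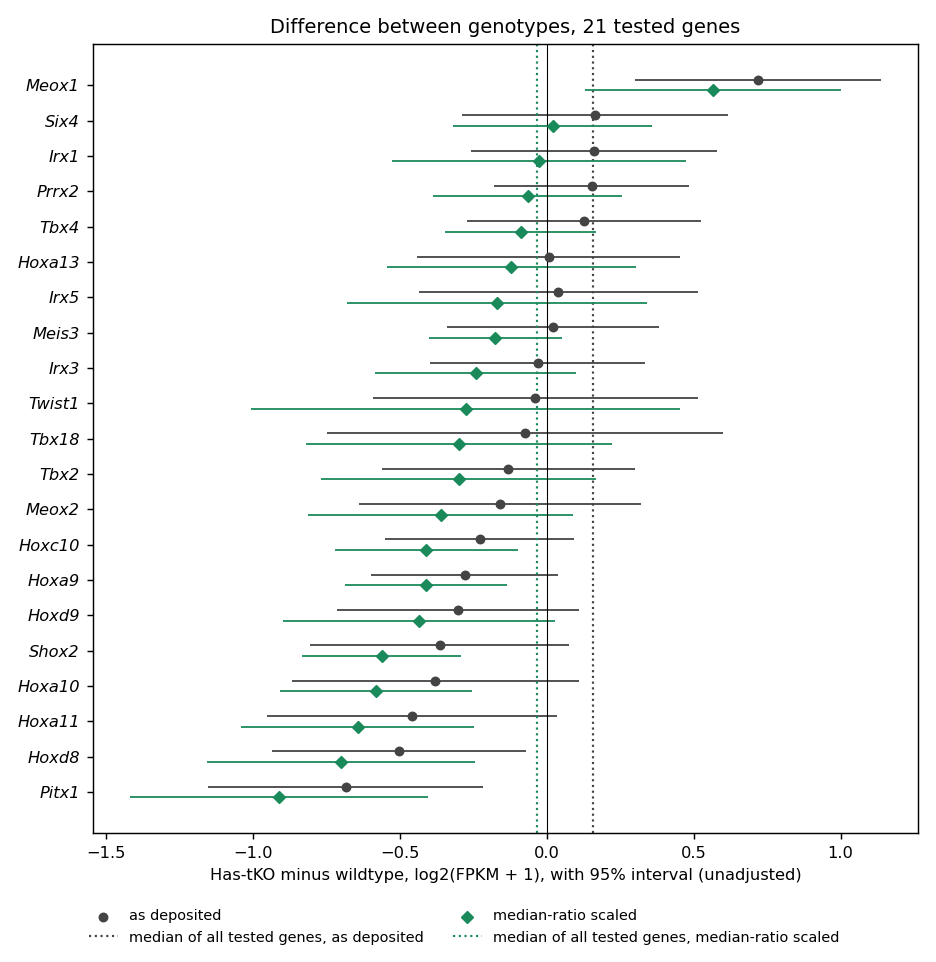
Difference of Has-tKO from wildtype in units of log2(FPKM + 1) with unadjusted 95% intervals for 21 of the 24 tested genes, as deposited (grey circles) and after median-ratio scaling (green diamonds), with dotted lines at the median of all tested genes (0.16 and -0.03). Meox1 is the 1 gene shown whose intervals lie wholly above 0, and the Hox genes other than Hoxa13 sit at the lower end beside Pitx1 and Shox2.

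Among the Hox genes of the limb code, Hoxa10 was listed at 2.94, 4.38, 4.08 and 4.06 FPKM in Has-tKO 1 to 4. All 4 lie below wildtype 2, 3 and 4 and above wildtype 1 (2.90 FPKM), so the groups overlap through that library. The difference was -0.38 (SE 0.22, adjusted p = 0.419) as deposited and -0.58 (SE 0.15, adjusted p = 0.0708) after scaling. Scaled to a common median, Hoxa10 stood at 4.40, 5.96, 5.67 and 6.83 in wildtype and at 2.63, 3.83, 3.69 and 3.76 in Has-tKO. On that scale the groups do not overlap.

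Hoxa11 had 2.75, 3.24, 2.24 and 1.19 FPKM in Has-tKO, with Has-tKO 4 lowest. The groups overlap through wildtype 1, and the difference was -0.46 (SE 0.23, adjusted p = 0.332), or -0.64 (adjusted p = 0.0934) after scaling. Hoxa9 had 0.680, 0.853, 1.02 and 0.895 FPKM in Has-tKO, each under the lowest wildtype value of 1.09. Its difference was -0.28 (SE 0.15, adjusted p = 0.361), or -0.41 (adjusted p = 0.115) after scaling. On the scaled values Hoxa9 met the filter only through its wildtype libraries, so that p is no independent sign of a difference. For Hoxa13, at the end of the cluster, the Has-tKO values of 0.828, 1.74, 0.429 and 1.04 FPKM span those of wildtype, and the difference was 0.01, or -0.12 after scaling (SE 0.19).

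Hoxd8 had 1.77, 3.58, 2.58 and 1.49 FPKM in Has-tKO, where Has-tKO 2 lies within the wildtype range and the other 3 below it. The difference was -0.50 (SE 0.20, adjusted p = 0.222), or -0.70 (adjusted p = 0.108) after scaling. Hoxd9 split within the group, with 0.373 and 0.507 FPKM in Has-tKO 1 and 2 and 1.07 and 1.26 FPKM in Has-tKO 3 and 4. Hoxc10 had 2.14, 1.96, 2.06 and 1.6 FPKM, 1 of which lies just inside the wildtype range, with a difference of -0.23 (adjusted p = 0.461) and of -0.41 (adjusted p = 0.152) after scaling.

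The ranges of the main proportions of the code overlapped between the genotypes, and no test was made of them. Groups 9 to 13 held 69.8% ± 4.68 of the summed Hox FPKM in Has-tKO, groups 5 to 8 held 18.6% ± 5.52 and groups 1 to 4 held 11.7% ± 2.00, each overlapping the wildtype range. The share of groups 1 to 4 was 7.43% to 10.0% in wildtype and 8.85% to 13.6% in Has-tKO, where 3 of 4 libraries lay above the wildtype range. Group 13 held 6.11% to 7.83% in wildtype and 12.1%, 13.8%, 5.74% and 13% in Has-tKO 1 to 4, again with 3 of 4 above the wildtype range. Counted instead as genes at 1 FPKM or more, groups 9 to 13 made up 85.2% ± 4.43 of those Hox genes in wildtype. In Has-tKO they made up 72.0% ± 10.9 (66.7%, 62.5%, 71.4% and 87.5%). Groups 1 to 4 made up none in wildtype and 16.7% and 12.5% in Has-tKO 1 and 2, through Hoxc4 alone (1.07 and 1.04 FPKM). After scaling, Hoxc4 stood at 1.32, 0.875, 0.819 and 1.01 in wildtype 1 to 4. In Has-tKO it then stood at 0.960, 0.913, 0.796 and 0.560, below 1 throughout. The Hoxa cluster held 49.2% ± 1.69, Hoxc 29.8% ± 2.61, Hoxd 18.9% ± 2.89 and Hoxb 2.18% ± 0.960. Shares of summed FPKM do not depend on the scaling of a library, while counts of genes at 1 FPKM do. Both leave out the Hox genes that were not analysed here. Summed over the 33 genes, Hox FPKM was 25.2 ± 4.41 in wildtype and 19.8 ± 3.79 in Has-tKO, with overlapping ranges (19.1 to 29.5 and 16.4 to 24.8 FPKM). Across the 68 genes of the set above 0 in any library, the rank correlation of the wildtype and Has-tKO means was 0.955, and 9 of the 10 highest genes were shared; both means rest on 4 libraries.

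Of the hindlimb pair, Pitx1 lay below its wildtype range in 3 of 4 Has-tKO libraries, and Tbx4 lay below its own in none. After scaling these counts were 4 of 4 for Pitx1 and 2 of 4 for Tbx4. Pitx1 had 3.34, 6.91, 5.83 and 3.42 FPKM in Has-tKO. Only Has-tKO 2 reaches the wildtype range, whose lowest value is 6.82. The difference was -0.68 (SE 0.21, adjusted p = 0.126), or -0.91 (SE 0.23, adjusted p = 0.0687) after scaling. Tbx4 had 5.03, 6.52, 4.90 and 6.0 FPKM, within or just above the wildtype values (3.57 to 6.45), with a difference of 0.13 (SE 0.18) that turned to -0.09 (SE 0.11) after scaling. The ratio of Pitx1 to Tbx4, formed after the values were seen and free of library scaling, was 2.23, 1.37, 1.21 and 1.88 in wildtype and 0.664, 1.06, 1.19 and 0.570 in Has-tKO. The groups do not overlap, though wildtype 3 and Has-tKO 3 nearly meet.

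Shox2 had 3.29, 3.27, 3.17 and 3.70 FPKM in Has-tKO, a narrow range (SD 0.234) below wildtype 2 to 4 and above wildtype 1 at 2.68 FPKM. Its wildtype values were 2.68, 5.96, 4.83 and 5.59 FPKM. After scaling they became 4.07, 5.52, 4.6 and 5.69, all above the Has-tKO values of 2.95, 2.85, 2.87 and 3.42. The difference was -0.36 (SE 0.20, adjusted p = 0.386) as deposited and -0.56 (SE 0.12, adjusted p = 0.0444) after scaling.

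Meox1, a homeobox factor of the somite, was the 1 gene with a higher value and an unadjusted p under 0.05. As deposited, every wildtype value lay under 1 FPKM, and it met the filter only through the 4 Has-tKO libraries. Its p and the gap between the groups as deposited are therefore no independent sign of a difference. It had 0.805, 0.890, 0.694 and 0.476 FPKM in wildtype and 1.47, 1.44, 3.03 and 1.58 FPKM in Has-tKO, so that the groups do not overlap and Has-tKO 3 stands above the rest. The difference was 0.72 (SE 0.19, adjusted p = 0.0779), or 0.57 (adjusted p = 0.156) after scaling. Its paralogue Meox2 stood at 4.32 ± 0.945 and 3.86 ± 1.32 FPKM. The ratio of Meox2 to Meox1, formed after the values were seen, was 3.94 to 11.0 in wildtype and 1.44 to 3.41 in Has-tKO.

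The mesenchymal factors Twist1 and Prrx2, the Iroquois genes Irx3 and Irx5, and Tbx2 had adjusted p from 0.634 to 0.952. Twist1 was 7.94 ± 1.97 FPKM in wildtype and 7.96 ± 3.05 in Has-tKO (-0.04 on the log2 scale, 95% interval -0.59 to 0.51). Prrx2 differed by 0.15 (interval -0.18 to 0.48) and Irx3 by -0.03 (interval -0.40 to 0.34), and both intervals hold differences of the size seen for Shox2 as deposited in 1 direction. Prrx2 and Irx5 turned from a value above 0 to one below 0 after scaling.

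Genes below the filter were followed singly. Of the 57 such genes, 30 averaged at least 0.1 FPKM over the 8 libraries, and each was compared by an exact permutation test of the mean FPKM, two-sided over 70 splits, unadjusted, with 0.0286 as the smallest p it can give. The means were higher in Has-tKO in 15 and lower in 15, and 2 of the 30 reached that smallest p, Hoxb4 among them, and 1 after scaling. Of all 8253 named genes below the filter with such a mean, 4.5% reached it as deposited and 4.31% after scaling, so 2 of 30 is near the background. Hoxb4 had 0, 0.0526, 0.0353 and 0.0967 FPKM in wildtype and 0.140, 0.183, 0.209 and 0.320 FPKM in the Has-tKO group (exact permutation p = 0.0286 before and after scaling). Every Has-tKO value lay above every wildtype value, at levels far under 1 FPKM, and with 30 tests this p would not pass an adjustment.

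The other low genes did not reach that p. Hoxd11, a lower leg gene, had 0.256 ± 0.0681 and 0.154 ± 0.0435 FPKM (exact permutation p = 0.0571). Twist2 had 0.0873 to 0.145 FPKM in wildtype and 0.556, 0.525, 0.689 and 0.00167 FPKM in Has-tKO, so that 3 Has-tKO libraries were above wildtype and Has-tKO 4 was near 0 (exact permutation p = 0.143). Hoxd13 was at 0.838 FPKM in Has-tKO 2 and at 0.167 FPKM or less elsewhere. For Dlx3, Dlx5, Dlx6, Msx1, Msx2, Lmx1b, Meis1, Meis2 and Tbx3 the exact permutation p ran from 0.171 to 0.771. The remaining 27 genes did not pass 0.293 FPKM in any library, and 13 of them were listed at 0 throughout.

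**Figure D4:**
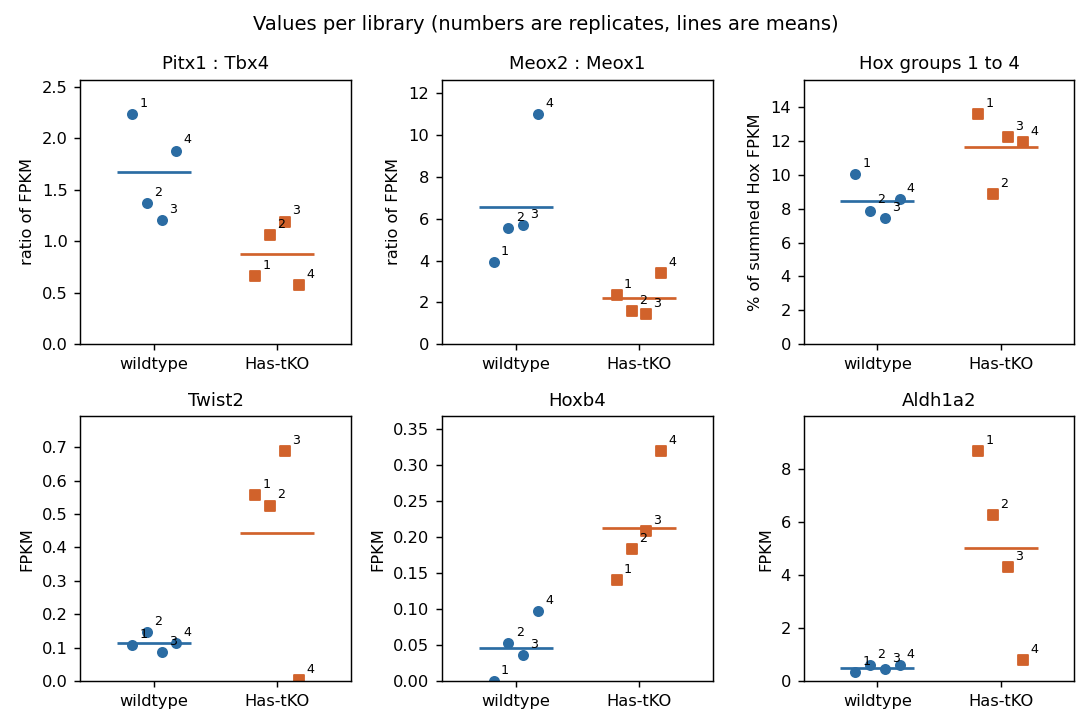
Values per library for the ratios Pitx1 to Tbx4 and Meox2 to Meox1, the share of groups 1 to 4 in summed Hox FPKM, and the FPKM of Twist2, Hoxb4 and Aldh1a2, with lines at the group means and replicate numbers beside the points. The groups do not overlap for the ratios, Hoxb4 and Aldh1a2, all chosen after their values were seen, so the gaps are no independent sign of a difference. Meox1 met the filter as deposited only through its Has-tKO values. Of all genes below the filter with a mean of at least 0.1 FPKM, 4.5% show no overlap. The groups overlap in the share of groups 1 to 4 and in Twist2. Has-tKO 4 stands far below the other Has-tKO libraries for Twist2 and Aldh1a2.

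Genes that act beside the code were read from the same fit. In it 1.78% of all genes passed, and 16.7% had an unadjusted p under 0.05 (14.4% higher and 2.3% lower). Of 24 named regulators of Hox chromatin, such as the Polycomb and Trithorax proteins that keep Hox genes silent or active, 22 were tested and 0 passed, with 1 at an unadjusted p under 0.05, and their median difference of 0.15 stood beside 0.16 for all genes. Of 27 named limb patterning signals 7 were tested and 0 passed, with 1 at an unadjusted p under 0.05 and a median of -0.13. Of 20 named other homeobox factors 6 were tested and 0 passed (1 at an unadjusted p under 0.05, median 0.18). Of 17 named genes of the retinoic acid system, whose ligand activates Hox genes of the anterior groups in the embryo, 7 were tested and 0 passed (none at an unadjusted p under 0.05, median 0.06). After scaling 0 passed in each of these lists too, of 23, 7, 6 and 8 tested, where 2.7% of all genes passed. At an unadjusted p under 0.05 there were then 2, 3, 2 and 2 genes, where 18.7% of all genes had one (8.44% higher and 10.3% lower). These genes were lower in Has-tKO, except 1 of the other homeobox factors. Of 13 named noncoding genes of the Hox clusters 1 was tested, the locus named Mir196a-2, with a difference of -0.82 (adjusted p = 0.256), and its FPKM is not a level of the mature miRNA.

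Of the genes of these lists that fell below the filter, 25 were compared by the exact permutation test and 3 reached its smallest p (4.5% of all such low genes), and the genes named here were chosen after their values were seen. Aldh1a2, the enzyme that makes retinoic acid in limb and trunk mesoderm, had 0.330, 0.601, 0.456 and 0.604 FPKM in wildtype and 8.68, 6.26, 4.30 and 0.773 FPKM in the Has-tKO group (exact permutation p = 0.0286). Each Has-tKO value lay above wildtype, Has-tKO 4 by little. Aldh1a3, another enzyme of that step, had 0.124 to 0.236 FPKM in wildtype and 0.254 to 0.897 FPKM in the Has-tKO group (exact permutation p = 0.0286). The retinoic acid binding protein Crabp1 had 0.651 to 0.857 FPKM in wildtype and 3.30, 1.87, 2.20 and 0.446 FPKM in the Has-tKO group (exact permutation p = 0.143), where Has-tKO 4 is again the low one. The part of the larger unnamed share of Has-tKO 4 in its values of Hoxa11, Twist2, Aldh1a2 and Crabp1 was not tested. En1, a limb ectoderm factor, was listed at 0 in all wildtype libraries and at 0.408, 0.337, 0.239 and 0 FPKM in Has-tKO.

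Some markers of other cells moved with the genotype. Of the 17 named macrophage markers 15 were tested and 3 rose as deposited, Cx3cr1, Cd52 and Spi1, and after scaling 1, Cx3cr1. Of all genes 1.58% passed as higher as deposited and 1.38% after scaling. At an unadjusted p under 0.05, 15 of the 15 were higher as deposited (14.4% of all genes) and 11 of 15 after scaling (8.44% of all genes), and their median difference was 0.99, or 0.73 after scaling, against 0.16 and -0.03 for all genes. Of 5 named cartilage markers 4 were tested. Col10a1 and Col9a1 fell (-1.06 and -0.89, adjusted p = 0.0203 and 0.0488 by limma), and Sox9 passed after scaling as well. Passing as lower were 0.192% of all genes as deposited and 1.32% after scaling. Col2a1, the highest of them, did not pass in limma (-0.15, adjusted p = 0.798, or -0.41, adjusted p = 0.584, after scaling). Matn1, below the filter, averaged 0.0211 FPKM in wildtype and 0.132 in Has-tKO. Summed cartilage markers overlapped, at 144 to 278 FPKM in wildtype and 141 to 214 FPKM in Has-tKO. Of 9 tested stromal and osteogenic markers 0 passed as deposited, with 2 lower at an unadjusted p under 0.05 (2.3% of all genes). After scaling 2 passed, Alpl and Ibsp, which fell by 1.07 and 1.21, where 1.32% of all genes passed as lower. Endothelial markers summed to 0.173 to 0.587 FPKM in wildtype and 0.650 to 1.14 FPKM in Has-tKO. Of the skeletal muscle markers Pax7 was at 0 in all libraries, and the 6 summed to 13.4 to 23.8 FPKM in wildtype and 20.3 to 43.4 in Has-tKO. The part of these cells in the lower level of Shox2, Pitx1 and the Hox genes, and in the higher level of Meox1, was not tested.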

How the data were processed

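RNA of 8 MSc cultures, 1 per mouse, was depleted of ribosomal RNA and made into libraries by Nextera tagmentation, which does not record the strand, per the labels' protocols. The authors deposited FPKM values for 76557 loci, of which 49868 carry a gene name. Per the submitters' processing notes, bcl2fastq, fastp, HISAT2, StringTie and DESeq2 were used with the builds GRCm39 and hg38. The sources used here do not give their versions, their options or the role of hg38. At the best of many step sizes tried, 13.7% to 16.7% of low values lay within 0.05 of whole multiples of 1 read. Chance gives 10% at a single fixed step, and the best of many steps was not compared with chance. The depth is therefore unknown and no counts were used.

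Genotype groups were taken from the sample descriptions. For a name on several loci the one with the highest mean was kept. Named genes that reached 1 FPKM in 4 or more libraries (9915) were transformed as log2(FPKM + 1), which understates changes of low genes, and fitted with limma 3.58.1 in R 4.3.3 (genotype only, intensity trend, two-sided, Benjamini-Hochberg over all tested genes, threshold 0.05). No rescaling was applied in that fit. Median-ratio size factors from 19489 loci above 0 in all libraries gave the scaled values, with 9784 genes tested. Single values were compared by exact permutation tests (SciPy 1.17.1). The fit was tested on simulated data beforehand. Promoter windows came from RefSeq (GRCm38.p6), 250 bases before the start.

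Genes are given by name if they mark hindlimb or forelimb identity, are Hox genes with a wildtype mean of at least 1 FPKM, belong to a written list of limb factors, pass in either fit, or are among the 6 smallest p; of the related lists, those that pass. The others named (Hoxa13, Hoxb4, Hoxc4, Hoxc8, Hoxc9, Hoxc11, Hoxc13, Hoxd11, Hoxd13, Irx1, Meis3, Meox2, Six4, Tbx18 and the genes of the related lists) were chosen after their values were seen. The gene set and lists were chosen with earlier results of these data known. Alternatives were other scaling, pseudocount, filters, no trend, summed loci, a replicate block and each library left out. Some genes of the set enter the counts and are not reported here by name.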

Additional observations from a re-analysis of the deposited data

Results flagged for a closer look

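In 100 groups of 4 values, over the genes and shares described above, 5 held a sample whose gap to the nearest other exceeded 0.829 of the group's range, and chance gives about 1 in 20. Wildtype 1 was that sample in 3 of them. It had 2.28 FPKM of Hoxa11 where the other wildtype libraries had 3.88 to 4.11, and 0.285 FPKM of Dlx5 where they had 0.877 to 0.977. It had 0.254 FPKM of Dlx6 where the others had 0.0391 to 0.0556. Has-tKO 3 had 3.03 FPKM of Meox1 where the other Has-tKO libraries had 1.44 to 1.58. Has-tKO 2 had 0.738% of its summed Hox FPKM in the Hoxb cluster where the other Has-tKO libraries had 2.62% to 2.70%.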

How the results depend on the processing

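The count of genes of the set that passed was 0 of 24 as deposited (4 at an unadjusted p under 0.05 in limma). It was 1 after median-ratio scaling, also with pseudocount 0.1, and 2 when wildtype 1 and Has-tKO 4 were left out together. Leaving out each library gave 0 to 2, with 2 for wildtype 1, and after scaling also 0 to 2, with 2 for wildtype 1, 1 for wildtype 3 and 0 for the other 6. With pseudocount 0.1 alone, no low filter, at least 1 FPKM in all 8 libraries, summed loci or no trend it stayed 0. Below the filter the count at the smallest exact p went from 2 to 1 (Hoxb4) after scaling. The share of groups 9 to 13 was 70.5% of summed Hox FPKM, 69.7% to 72.0% with a library left out, and 85.2% as a share of the number of Hox genes at 1 FPKM or more. Over all genes 176 passed as deposited, 111 with pseudocount 0.1, 2 with no low filter and 5 (without Has-tKO 1) to 349 (without wildtype 1) with a library left out. The cause was not tested. Differences that turned sign lay near 0. After scaling these were Hoxa13 (-0.12), Irx1 (-0.026), Irx5 (-0.17), Meis3 (-0.17), Prrx2 (-0.0645) and Tbx4 (-0.0884). After scaling and without wildtype 1 they were Irx5 (-0.0567), Meis3 (-0.18), Six4 (-0.0853), Tbx4 (-0.088) and Twist1 (0.0006). With pseudocount 0.1 it was Hoxa13 (-0.0406), and without wildtype 1 and Has-tKO 4 they were Irx5 (-0.15), Meis3 (-0.0932) and Tbx4 (-0.035). Leaving out 1 library gave Hoxa13 -0.0506 to 0.16, Irx1 -0.0037 to 0.24, Irx3 -0.13 to 0.0905, Irx5 -0.13 to 0.19, Meis3 -0.11 to 0.0889, Meox2 -0.30 to 0.0189, Six4 -0.0225 to 0.29, Tbx18 -0.41 to 0.0845, Tbx2 -0.23 to 0.0576, Tbx4 -0.005 to 0.23 and Twist1 -0.23 to 0.17. With a replicate block 0 genes of the set passed, and 0 after scaling with the block, where Shox2 no longer passed; over all genes 147 passed with the block. Same-numbered libraries correlated in their deviations by -0.0826, 0.311, -0.121 and -0.0588, and only number 2 was the best match of 4. These 4 values cannot exclude that same-numbered samples were handled together. The scalings, libraries and pseudocounts beyond those planned were chosen after seeing the data. Each group has 4 mice, and with the depth unknown no counting error can be given for levels below 1 FPKM.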
